A study of Homo sapiens with 2 samples.

Results

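The non-clustered protocadherins are 10 genes of the cadherin superfamily: PCDH1, PCDH7, PCDH8, PCDH9, PCDH10, PCDH12, PCDH17, PCDH18, PCDH19 and PCDH20. They were taken as a gene family, and each is represented by every probe set annotated to it alone, which gave 23 of the 54675 probe sets on the array and covered 9 of the 10 genes. PCDH20 had no probe set of its own and is not analysed here. The family was chosen with the signals of both arrays known, so the values below describe these arrays and test nothing.

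The arrays measured total RNA of SK-N-MC, a human tumour line that the submitters call a neuroepithelioma and that today is counted among Ewing tumours. 1 array carried RNA of cells stably transfected with the empty pCMV-Script vector (the vector control, labelled number 1), and the other RNA of cells stably transfected with the human melanotransferrin cDNA in that vector (the hyperexpression clone, labelled number 4). Melanotransferrin is a membrane-bound relative of the iron carrier transferrin, and the comparison sets cells that make it in excess against cells with the vector alone. Each line is a selected clone measured on 1 array, so the groups have neither a replicate SD nor a test, and a difference due to the transgene cannot be told apart from a difference between 2 clones. Values are deposited probe set signals, linear hybridisation intensities scaled to the same trimmed mean on both arrays.

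A signal of 208 served as the floor, set from probe sets for olfactory and taste receptors and hair keratin-associated proteins. The control array had 50.8% of its probe sets above that level and the clone array 47.3%; the probe sets behind the floor had medians of 67.4 (control) and 44 (clone). The probe set for melanotransferrin that is annotated to the inserted transcript read 18.4 (control) and 4449.4 (clone), whereas its 3 other probe sets did not differ in this way. All 6 listed Ewing tumour line markers with a probe set, CD99, NKX2-2, STEAP1, LIPI, CCND1 and JAK1, were above the floor on both arrays. Of 7 endothelial markers 5 were below it on both, as were 3 of 6 neuronal and 3 of 5 leukocyte markers and none of 6 fibroblast markers.

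Protocadherins are single-pass membrane proteins whose extracellular part is a row of cadherin repeats that bind calcium and mediate mostly homophilic contacts between cells. The clustered protocadherins lie in tandem arrays on chromosome 5, whereas the non-clustered genes are scattered. PCDH1, PCDH7 and PCDH9 belong, with PCDH11X and PCDH11Y, to the delta-1 group, which has a longer set of repeats and a cytoplasmic motif that binds protein phosphatase 1; PCDH8, PCDH10, PCDH17, PCDH18 and PCDH19 form the delta-2 group, of which several members recruit the actin-regulating WAVE complex. In the nervous system they take part in cell sorting, axon growth and synapse formation, and the promoters of PCDH8, PCDH10, PCDH17 and PCDH20 are known to be methylated in many carcinomas.

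The sequences upstream of 3 members are shown: PCDH17 and PCDH19 were the members past 2-fold, and PCDH18, within 2-fold on its brightest probe set, is set beside them. Each is the 250 bases before a transcription start given by RefSeq (GRCh38.p14), 5′ to 3′ on the gene's strand, with the GGAA core bound by ETS factors such as EWSR1-FLI1 in capitals, on either strand (TTCC on the printed one). PCDH17 is at chr13:57631494-57631743 on the plus strand, PCDH18 at chr4:137532495-137532744 on the minus strand and PCDH19 at chrX:100410274-100410523 on the minus strand.
PCDH17: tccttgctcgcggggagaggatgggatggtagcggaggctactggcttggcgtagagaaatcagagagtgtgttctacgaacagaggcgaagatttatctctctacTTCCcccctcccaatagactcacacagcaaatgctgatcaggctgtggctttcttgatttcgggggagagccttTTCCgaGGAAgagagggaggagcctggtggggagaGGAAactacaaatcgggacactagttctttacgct
PCDH18: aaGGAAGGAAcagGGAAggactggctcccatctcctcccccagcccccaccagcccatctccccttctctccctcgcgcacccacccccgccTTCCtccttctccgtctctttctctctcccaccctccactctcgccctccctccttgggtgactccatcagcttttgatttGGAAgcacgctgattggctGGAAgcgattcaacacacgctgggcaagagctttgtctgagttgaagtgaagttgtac
PCDH19: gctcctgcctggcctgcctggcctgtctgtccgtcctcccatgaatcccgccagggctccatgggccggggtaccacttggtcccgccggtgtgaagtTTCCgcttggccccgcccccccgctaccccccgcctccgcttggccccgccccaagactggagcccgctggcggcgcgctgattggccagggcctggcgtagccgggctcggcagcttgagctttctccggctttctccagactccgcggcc

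Of the 10 members 8 had an entry in the promoter table. The PCDH17 window held 4 GGAA cores, a number reached by 34.3% of all promoter windows of this length, and the PCDH19 window held 1, reached by 92.7%. PCDH18 held 6 and was the 1 member with the doubled core GGAAGGAA (TTCCTTCC on the other strand), which contains 2 of those cores and occurs in 3.06% of all windows. The other windows held 3 cores for PCDH9, 4 for PCDH1 and PCDH7, 5 for PCDH8 and 7 for PCDH12. CpG dinucleotides numbered 21 in the PCDH19 window, 20 in that of PCDH9, 14 for PCDH8, 10 for PCDH7 and PCDH17, 8 for PCDH18, 6 for PCDH1 and 5 for PCDH12, against a median of 11 over all windows. PCDH17 and PCDH19 differed in both counts. Whether either count goes with the ratios was not tested, and a match of letters is no evidence of binding.

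**Figure D1:**
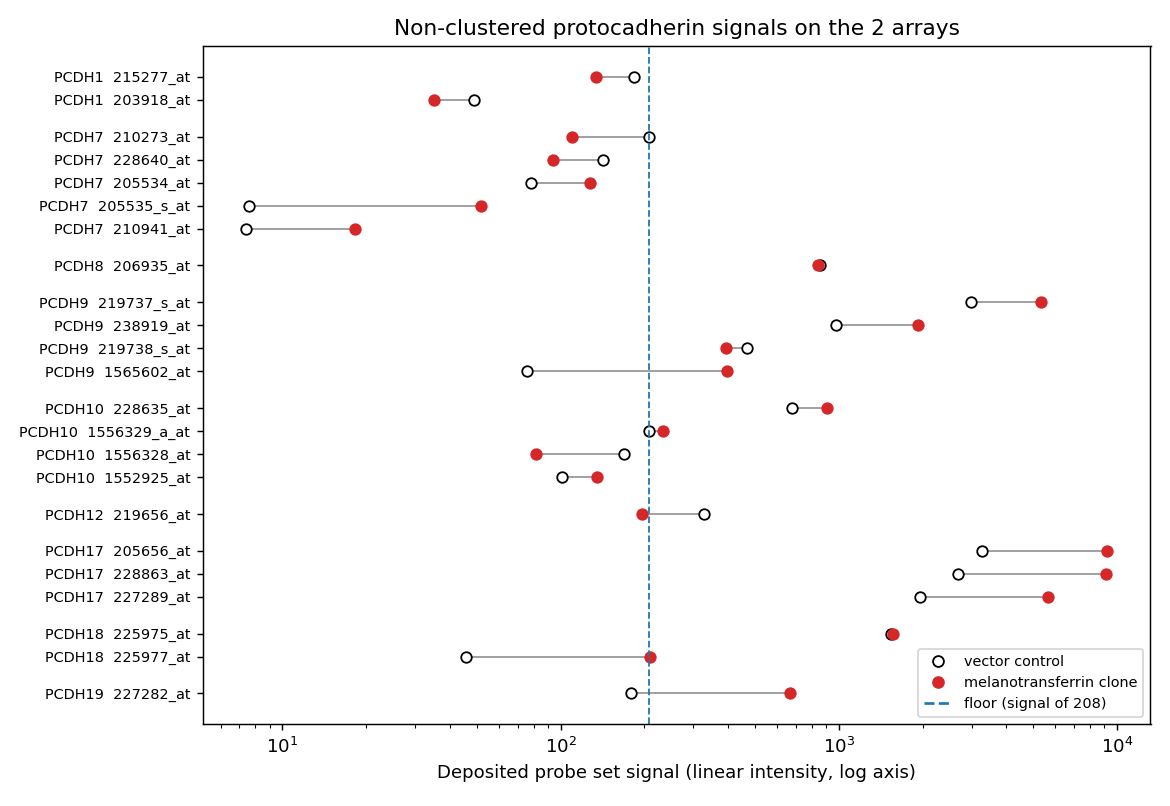
Deposited signal of each of the 23 probe sets (rows, named by gene and probe set) on the vector control array (open circles) and the melanotransferrin clone array (filled circles), on a log axis; the dashed line is the floor of 208. All 3 probe sets for PCDH17 lie well to the right of the floor with the clone higher, whereas both for PCDH1 lie below it.

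Of the 23 probe sets, 10 were above the floor on both arrays, 5 on 1 array and 8 on neither. Where a probe set was above the floor on 1 array only, the other signal was set to the floor, so the ratio is a bound and is written "at least". At least 2-fold higher in the clone were 4 of the 15 probe sets with a value, the 3 for PCDH17 and the 1 for PCDH19, and 0 were at least 2-fold lower. Among all single-gene probe sets above the floor on either array, 1.24% were at least 2-fold higher and 1.93% at least 2-fold lower. Counted as genes by their brightest probe set, 2 of the 8 measured members were at least 2-fold higher and 0 at least 2-fold lower; of all 12663 measured genes 1.21% were higher and 1.9% lower by that size. These counts rest on values that chose the family, and nothing is read from them. The median log2 ratio of the 8 members was 0.22, bounds included, and that of all measured genes was -0.022.

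**Figure D2:**
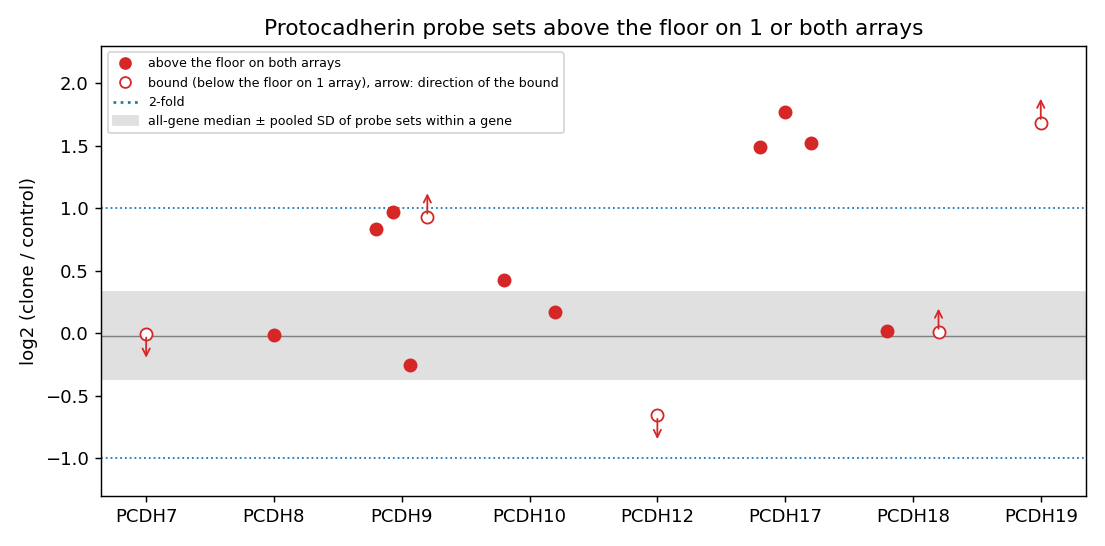
log2 ratio of clone over control for the 15 probe sets above the floor on 1 or both arrays, by gene; filled circles are ratios, open circles with arrows are bounds, dotted lines mark 2-fold, and the grey band is the median of all measured genes ± the pooled SD of probe sets within a gene (0.35). The 3 probe sets of PCDH17 lie close together at 1.49 to 1.77, whereas those of PCDH9 fall on both sides of 0.

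PCDH17, a delta-2 member found at synapses of corticobasal ganglia circuits, was higher in the clone on every one of its probe sets. Probe set 205656_at read 3279.4 (control) and 9236 (clone), a 2.82-fold difference. Probe set 228863_at read 2684.8 and 9139.1, 3.40-fold higher. Probe set 227289_at read 1960.3 and 5631.9, 2.87-fold higher. On each probe set the clone gave the higher signal, and both signals were far above the floor. The log2 ratios had a mean of 1.59 ± 0.15 (SD over 3 probe sets, read on the same pair of arrays), against a pooled SD of 0.35 for the probe sets of 5387 genes. These spreads cover the disagreement between probe sets read on 1 pair of arrays and say nothing of the spread between clones or cultures. Of 1444 genes with 3 such probe sets, each over the floor in both samples, 24.9% had an SD as small. Of 12663 measured genes PCDH17 ranked 23 from the highest by its brightest probe set; among 2968 genes with a mean signal within 2-fold of its own, log2 ratios had an SD of 0.26, 8 were at least 2-fold higher and PCDH17 had the highest ratio. Its log2 ratio was 0.88, short of 2-fold, when the arrays were centred on the poly-A spikes, control transcripts spiked into the sample RNA, a scaling that moved the median of all genes to -0.57. RNA per cell and the share of cells that express a gene cannot be told apart in these bulk samples.

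PCDH19, the delta-2 member on the X chromosome whose mutations cause an epilepsy of early childhood, was the other member past 2-fold. Its only probe set, 227282_at, read 179.4 for the control, which is under the floor, and 669.7 for the clone. The signal in the clone was thus at least 3.22-fold higher, and the quotient of the raw signals was 1.90 on the log2 scale. Of 442 genes whose brightest probe set was above the floor on the clone array alone, 5 including PCDH19 had a bound as large, and 33 had one of at least 2-fold. The bound depends on the floor: it was 0.69 on the log2 scale, under 2-fold, with the floor doubled. No second probe set bears on it.

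PCDH10, PCDH8 and PCDH18 complete the delta-2 group and were within 2-fold on their brightest probe sets. PCDH10, needed for the growth of striatal axons, read 677.7 and 909.5 on probe set 228635_at, a log2 ratio of 0.42. A second probe set, 1556329_a_at, read 208.6 in the control, at the floor, and 234.1 in the clone, a log2 ratio of 0.17. Both were higher in the clone by an amount near the spread of probe sets within a gene. Its other probe sets stayed under the floor and differed in sign, at 168.8 and 81.4 for 1556328_at and at 101.1 and 135.6 for 1552925_at.

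PCDH8, the activity-regulated protocadherin also called arcadlin, read 853.7 (control) and 844.4 (clone) on its only probe set, a log2 ratio of -0.016. PCDH18 read 1544.9 and 1561.7 on probe set 225975_at, a log2 ratio of 0.016. Among members whose brightest probe set was above the floor on both arrays, these had the smallest differences on that probe set. A second probe set for PCDH18, 225977_at, read 45.6 (control) and 208.9 (clone), and since the clone signal was just above the floor its bound was at least 1.00-fold. The 2 probe sets for PCDH18 thus do not give the same picture, and the dim one sets no size.

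PCDH9, a delta-1 member of cortical neurons with a very long gene, had 4 probe sets that disagreed. Probe set 219737_s_at read 2991.6 (control) and 5321.9 (clone), 1.78-fold higher. Probe set 238919_at read 978.1 and 1920.6, 1.96-fold higher. Probe set 1565602_at read 75.7 and 396.1, at least 1.90-fold higher. Probe set 219738_s_at went the other way, at 468.6 and 393.3, a log2 ratio of -0.25. Thus 3 of the 4 were higher in the clone. No ratio above the floor on both arrays reached 2-fold, and the bound for 1565602_at does not tell whether that probe set did. The SD over the 3 that passed the floor in both samples was 0.67 on the log2 scale, and 3.74% of genes with 3 such probe sets had an SD as large. Which transcripts each probe set reads was not tested, since probe sequences were not used.

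PCDH1 and PCDH7, also of the delta-1 group, were at or under the floor. PCDH1, which is known from airway epithelium, read 184.2 and 134.5 on probe set 215277_at and 48.7 and 35 on 203918_at, so no size of change is given. For PCDH7, which binds protein phosphatase 1 and was first found in brain and heart, 4 of 5 probe sets stayed under the floor, and 3 of these 4 had the higher signal in the clone. Probe set 205534_at read 78.1 (control) and 127.8 (clone), 205535_s_at 7.6 and 51.8, and 210941_at 7.4 and 18.2. Probe set 228640_at read 142.4 and 93.7. The remaining one, 210273_at, read 208.7 in the control, at the floor, and 109.6 in the clone, a bound of at least 1.00-fold lower. Its probe sets thus differed in sign at signals that do not allow a size.

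PCDH12, an endothelial protocadherin also known as VE-cadherin-2, was the measured member with the lowest ratio. Its only probe set, 219656_at, read 327.7 (control) and 195.6 (clone), at least 1.58-fold lower. Background probe sets were also lower on the clone array, with the medians given above, and 1426 genes passed the floor with the control alone against 442 with the clone alone; the part of background in this value was not tested. Of those 1426 genes, 25% had a bound as low. At a size of 1.5-fold it was the 1 member counted as lower, against 8.43% of all measured genes, and 3 members, PCDH9, PCDH17 and PCDH19, were counted as higher, against 5.38%. Endothelial markers did not move with it in 1 direction: CDH5, the endothelial cadherin, read 169.2 and 424.8, PECAM1 read 435.7 and 235, and VWF, KDR, TEK, TIE1 and CLDN5 were below the floor on both arrays. The summed signal of the 7 markers was 965 in the control and 821.6 in the clone.

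Position separated the members into few chromosomes. PCDH8, PCDH17, PCDH20 and PCDH9 lie in this order on chromosome 13, PCDH7, PCDH10 and PCDH18 on chromosome 4, PCDH1 and PCDH12 on chromosome 5 and PCDH19 on the X chromosome. Around PCDH17, the 10 measured genes on each side included PCDH8 and PCDH9, had a median log2 ratio of 0.13 and held 0 genes at least 2-fold higher. The neighbour next beyond it, DIAPH3, a formin, read 4972.5 and 6960.3, a log2 ratio of 0.49. DHRS12, a short-chain dehydrogenase, read 751.2 and 359.3 on its brightest probe set and was 2.09-fold lower there. Another of its probe sets read 242.7 (control) and 181.5 (clone, under the floor), a bound of -0.22 on the log2 scale. The remaining one stayed under the floor on both arrays, at 65.5 and 13. The 2.09-fold value thus rests on the brightest probe set alone. The neighbours of the chromosome 13 members overlap; counted once and without members they were 24 genes, of which 17 lay above the median of all genes, with a median log2 ratio of 0.18. Over all 242 measured genes of chromosome 13 the median was 0.10. The log2 ratio of PCDH17 lay above those of all 20 genes around it, and PCDH9, the 5th measured gene beyond it, had the next highest ratio among those 20. PCDH17 was singled out as past 2-fold higher, as were only 1.21% of all measured genes. Its place above its neighbours was thus nearly given beforehand, and nothing is read from it.

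PCDH19 likewise lay above its neighbours, which was nearly given beforehand for the same reason. The 20 measured genes around it had a median log2 ratio of 0.055, and 0 were past 2-fold in either direction. DIAPH2, another formin and the nearest gene before it, read 2324 and 3263.1, a log2 ratio of 0.49. On chromosome 4, the gene between PCDH10 and PCDH18 in the order of measured genes is PABPC4L, a poly-A binding protein gene, which read 480.2 and 1133.7 and was 2.36-fold higher. PCDH10 and PCDH18, on either side, had the log2 ratios of 0.42 and 0.016 given above.

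**Figure D3:**
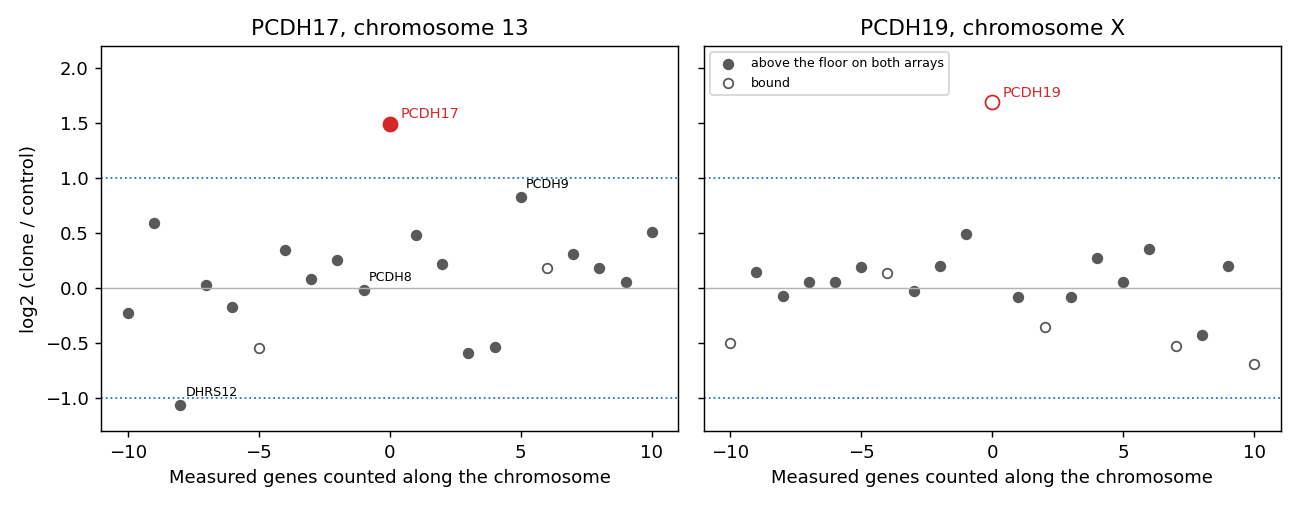
log2 ratio of clone over control for PCDH17 (left) and PCDH19 (right) and the 10 measured genes on each side of each, in chromosome order; open symbols are bounds and dotted lines mark 2-fold. PCDH17, at 1.49, and PCDH19, at a bound of 1.69, lie above all 20 genes around each. Both are shown because they were past 2-fold, so this order was nearly given beforehand.

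Other genes of the family and their known partners were read from lists. Their counts stand beside the shares of all measured genes, 1.21% at least 2-fold higher and 1.9% at least 2-fold lower. In lists this short a count of 0 says little. Of the 14 further cadherin-related genes (PCDH11X and PCDH11Y of the delta-1 group, PCDH15, the CDHR genes, and the giant cadherins FAT1 to FAT4, DCHS1 and DCHS2) 12 had a probe set and 4 were measured, with 0 past 2-fold. FAT4, a planar polarity cadherin, read 7069.4 and 8033.6, a log2 ratio of 0.18. DCHS1, its ligand, read 5229.7 and 5146.8, a log2 ratio of -0.023. Of 33 clustered protocadherins with a probe set of their own, 19 were measured, 2 were at least 2-fold higher and 0 at least 2-fold lower, with a median log2 ratio of 0.30. The higher ones were PCDHB5, at 797.4 and 3383.8, 4.24-fold higher, and PCDHGA4, at 507.5 and 1255.7, 2.47-fold higher. Many clustered genes share near-identical sequence, so their probe sets may read more than 1 gene. The median of the clustered list was likewise above that of all genes, and no difference between the 2 families was tested.

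The WAVE complex, which links delta-2 tails to actin, had 8 of 11 members measured, 0 at least 2-fold higher and 1 at least 2-fold lower, with a median log2 ratio of -0.20. That 1 member was NCKAP1L, the haematopoietic subunit, at 14165 and 6069.1, 2.33-fold lower; its other probe sets read 4642.9 and 6002.4, and 3578.8 and 3572.3, so that neither was lower by that size. CYFIP1, a subunit found in most tissues, read 9427.9 and 10198, a log2 ratio of 0.11. NCKAP1, the subunit that NCKAP1L replaces in blood cells, read 15071 and 11729, a log2 ratio of -0.36. Leukocyte markers beside it were PTPRC, at 15581 and 13943, and CD53, at 342 and 209.7, with LYZ, CD3E and CD14 below the floor on both arrays; their part in the NCKAP1L value was not tested.

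Of 11 further partners 10 were measured and 0 passed 2-fold in either direction, with a median log2 ratio of 0.045. The catalytic subunits of protein phosphatase 1, bound by delta-1 tails, had log2 ratios of -0.34 for PPP1CA, 0.34 for PPP1CB and 0.0054 for PPP1CC. SET, a chaperone of histones that binds PCDH7, read 47023 and 57471, a log2 ratio of 0.29. CDH11, an adhesion partner of PCDH8, read 31294 and 33172, a log2 ratio of 0.084. CDH2, the classical cadherin that acts with PCDH8 and PCDH19 in other cells, stayed under the floor, at 82.8 and 114.3. DAB1, an adaptor that binds PCDH18, read 556.3 and 683.2, a log2 ratio of 0.30.

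**Figure D4:**
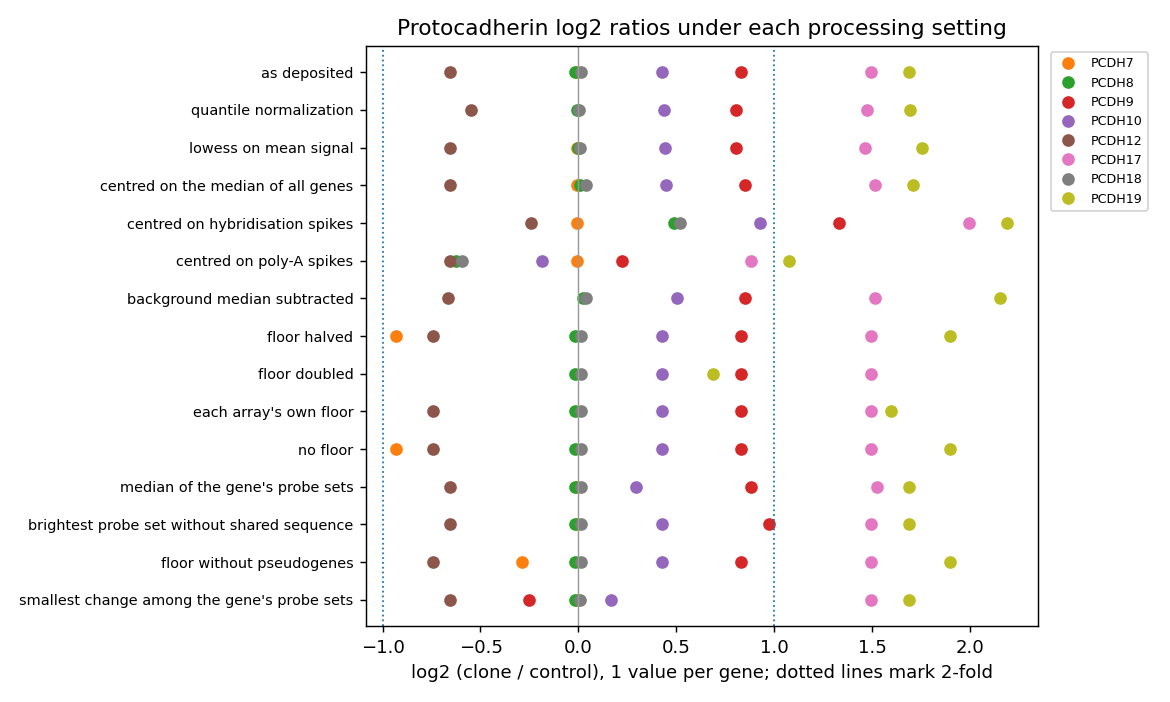
log2 ratio of clone over control for each measured protocadherin (colours) under the values as deposited (top) and 14 other processing settings (rows); dotted lines mark 2-fold. PCDH17 stays between 0.88 and 2.00 and PCDH19 between 0.69 and 2.19, whereas PCDH8 and PCDH18 move with the scaling to either side of 0.

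Under the 15 settings, the values as deposited included, PCDH17 was higher in each and at least 2-fold higher in 14. PCDH19 was also higher in each and at least 2-fold higher in 14. Several settings could not move these values. All signals of PCDH17 were far above the floor, so a change of floor left it at 1.49. Its brightest probe set was also the one with the smallest change and had no shared sequence, so those settings repeated 1.49. PCDH19 has 1 probe set, so the choice of probe set left it at 1.69. PCDH9 was higher in 14 and past 2-fold in 1, the scaling on hybridisation spikes, and was lower at -0.25 where the probe set with the smallest change stood for the gene. PCDH10 was higher in 14 and lower on the poly-A spikes, at -0.19. PCDH8 ranged from -0.63 to 0.49 and PCDH18 from -0.59 to 0.52. PCDH12 was lower in the 14 settings that gave it a value, from -0.74 to -0.24. PCDH7 was lower in the 11 that did, from -0.93 to -0.0048. That sign rests on 1 probe set with a control signal at the floor, and 3 of the 4 dimmer ones were higher in the clone.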

How the data were processed

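Per the file, the deposited data hold 1 intensity value per probe set and array, on a linear scale; GCOS 1.3 was used, per the submitters' processing notes, and for the summary algorithm and the detection calls the sources used here give nothing. Without the lowest and highest 2% of probe sets, the mean of the deposited intensity values was 1000.12 on both arrays, so a change of most transcripts alike cannot be seen. Probe sets were named from the platform annotation of 2016; 41097 of 54675 had 1 gene symbol, and 41043 of these were updated through RefSeq (GRCh38.p14), which also gave gene order and promoters. The floor was the 90th percentile of 191 background probe sets over both arrays, a gene was read by its brightest probe set, and a ratio of 2 was the fixed size. With 1 array per group no test was run and no p-value is given; the number of arrays limits the precision. Every member was named with every probe set; genes of the 4 related lists and neighbours were named where at least 2-fold apart, as was the brightest measured gene of each of those lists, and other examples were chosen after their values were seen. The members and lists were chosen with earlier results of these data known. Python 3.11.15, numpy 2.4.6, pandas 2.3.3, statsmodels 0.14.6 and matplotlib 3.10.9 were used, and the code was tested on simulated data. Alternatives varied the scaling, the background, the floor, the probe set per gene and the fold.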

Additional observations from a re-analysis of the deposited data

How the results depend on the processing

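The count of 2 members at least 2-fold higher went to 1 with the poly-A spike scaling and to 1 with the floor doubled, and otherwise kept its value or stayed within 1.5 times of it; the count of 0 lower members went to 1 when 1.5-fold replaced 2-fold (PCDH12). The median log2 ratio of the members, 0.22 as deposited, was 0.44 after quantile normalization, 0.72 on the hybridisation spikes, -0.095 on the poly-A spikes, 0.50 with background subtracted, 0.016 with the floor halved, 0.56 with it doubled, 0.42 with each array's own floor, 0.016 without a floor, 0.016 with a floor of 171 set without pseudogenes (chosen after seeing the data), and 0.00069 on the probe set with the smallest change. The median of all measured genes, -0.022 as deposited, moved with the spike scalings, to 0.46 on the hybridisation spikes and -0.57 on the poly-A spikes. In the other settings it lay between -0.077 (no floor) and 0.011 (background subtracted). Clustered protocadherins at least 2-fold higher, 2 as deposited, were 6 on the hybridisation spikes, 1 on the poly-A spikes, 6 with the floor halved and 9 without a floor; the 0 lower ones became 2 on the poly-A spikes, 1 with background subtracted, 2 with the floor halved, 2 with each array's own floor, 7 without a floor and 2 with the floor set without pseudogenes. Further cadherin-related genes at least 2-fold lower were 4 without a floor. The 1 lower WAVE gene became 0 on the hybridisation spikes, as the median of probe sets and on the probe set with the smallest change. The shares of all measured genes moved too: at least 2-fold higher were 7.33% on the hybridisation spikes, 0.105% on the poly-A spikes, 2.23% with the floor halved and 7.89% without a floor, and at least 2-fold lower were 0.692%, 10%, 6.78% and 17.7%, in that order. With the floor doubled, 0.703% of all measured genes were at least 2-fold higher. The lower share was 2.46% with background subtracted, 3.24% with each array's own floor and 2.87% with the floor set without pseudogenes. It was 1.39% as the median of probe sets and 1.29% on the probe set with the smallest change. Each spike scaling divided the clone array by 1 constant, the median log2 ratio of the spikes, -0.50 for hybridisation and 0.61 for poly-A. Ratios above the floor on both arrays thus moved alike. A change of floor alters which genes count as measured and the size of their bounds. Why the spikes differed between the arrays, and any cause beyond these steps, was not tested. No paired analysis was possible because each group has 1 array. Signal over background limits PCDH1, PCDH7, PCDH12 and PCDH19, which lie near or under the floor on 1 or both arrays.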
